A study of Mus musculus with 18 samples.

Results

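The 10 genes described here encode the transporters that carry bile acids, phospholipid and organic anions into and out of the hepatocyte: Slc10a1, Slco1a1, Slco1a4 and Slco1b2 for uptake from blood, Abcb11, Abcb4, Abcc2 and Atp8b1 for the canaliculus, and Abcc3 and Slc51b for return to blood. They were taken by symbol, with earlier results of these data known. All 10 were among the 19057 symbol lines of the table, and all 10 were among the 10507 genes tested.

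Bile acids are made from cholesterol in the hepatocyte, pumped across its canalicular membrane into bile, reclaimed in the ileum and taken up again from portal blood at the sinusoidal membrane. Their export draws phospholipid and cholesterol with it, so the canalicular pumps also set the lipid of bile. The nuclear receptor Fxr (Nr1h4) binds bile acids and is known for raising export genes and for lowering synthesis. Most members serve as routine markers of hepatocyte function, and inherited loss of the human counterparts of several of them causes cholestasis.

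The livers came from 10-week-old mice of ICR, an outbred stock, all male by the study's methods, with 3 livers in each of 6 groups. Con mice had a regular diet and saline, and HFD mice had a high-fat diet from weaning and saline. Con-FMT and A10-FMT mice had the high-fat diet and daily oral transfers of small-intestinal microbiota for part of the feeding period. The microbiota was pooled from control donors given water by gavage or from donors dosed with alginate oligosaccharide (AOS) at 10 mg/kg. AOS and HFD+AOS mice were labelled as given AOS at 10 mg/kg without or with the high-fat diet. The labels name no diet for AOS, and these livers are counted here as regular diet. Each transferred inoculum was a single pool per donor group, so that differences between individual donors could not be seen. The question put to these genes was whether diet, AOS or the transferred microbiota moved their mRNA.

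Values are RPKM, reads scaled to gene length and to the mapped reads of the library, so that levels can be compared between genes. Changes are differences of group means of log2(RPKM + 1), given with the standard error of a limma fit over all 18 livers, and passed the test at a Benjamini-Hochberg adjusted p under 0.05 over all genes. The labels number the 3 livers of a group without saying that they came from separate mice, so the p values measure the spread between these libraries. The summed RPKM of a liver was between 692303 and 806937, and the read depth is unknown. All 8 hepatocyte markers were detected, with a summed level between 38741 and 66398 RPKM, while the cholangiocyte list summed to between 23.3 and 48.8, mostly Spp1. Of the kidney and gut markers, Fabp2 was at 36.6 to 112 RPKM and the other 7 at 0.68 or less. The third Con liver and the third AOS liver lay between the first and second of their group unusually often. Among genes whose first and second livers differed by a log2 of 1 or more, the third lay between them for 98.0% and 96.5%, against 60.0% to 76.8% in the other groups. The same held for 8 of the 10 transporters in Con and in AOS. Whether these 2 livers are independent of the others of their group could not be told, so the spread within Con and AOS may be too small. Calls and changes against regular-diet livers are therefore also given without these 2 livers. Their omission left 0 of all 10507 genes past the test in HFD against Con and in AOS against Con. In high-fat against regular diet it left 470, from 1355.

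The regions upstream of 4 members are shown because the diet comparison turned on Slco1b2, Abcb4 and Abcc2 and the comparisons within the high-fat diet on Abcb11. RefSeq promoters on GRCm38.p6, 250 bases before to 50 after the start, matched 8 of the 10 members. Both strands were searched for the inverted repeat of the nuclear receptor hexamer with 1 base between, AGGTCANTGACCT with at most 1 mismatch, and for the HNF1 palindrome GTTAATNATTAAC with at most 2. Capitals mark the matches, and each sequence reads 5′ to 3′ on the strand of its gene.
Abcb11, chr2:69342617-69342736, minus strand: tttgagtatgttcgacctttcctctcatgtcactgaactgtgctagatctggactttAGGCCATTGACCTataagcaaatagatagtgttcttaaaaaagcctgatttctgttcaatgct
Slco1b2, chr6:141629398-141629517, plus strand: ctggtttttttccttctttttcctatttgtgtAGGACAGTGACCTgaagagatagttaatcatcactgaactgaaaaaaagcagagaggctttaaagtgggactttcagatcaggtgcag
Abcc2, chr19:43782225-43782253, plus strand: ctagcaaaGTTAACTATTAAGttgtcagg
Abcb4, chr5:8893601-8893700, plus strand: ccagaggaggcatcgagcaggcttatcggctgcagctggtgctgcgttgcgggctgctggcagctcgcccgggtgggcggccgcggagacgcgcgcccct
The inverted repeat is the form of site that Fxr is known to bind. It was matched in 27 of 32851 promoters, 0.0822%, and 2 of these belonged to Abcb11, from 63 to 51 bases before the start, and to Slco1b2, from 88 to 76 bases before it. The HNF1 palindrome was matched in 1.36% of promoters, and among the members only in Abcc2, from 75 to 63 bases before the start. The Abcb4 region held neither, and at 74.0% G and C it stood above the Abcb11 region at 38.3% and the Slco1b2 region at 39.2%. A match is a description of letters. These starts are those of RefSeq, while the gene spans given with the values below are those of GENCODE, whose Abcc2 begins upstream of the RefSeq start. The single hexamer AGGTCA, which lies inside the inverted repeat, was in 16.3% of all promoters.

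**Figure D1:**
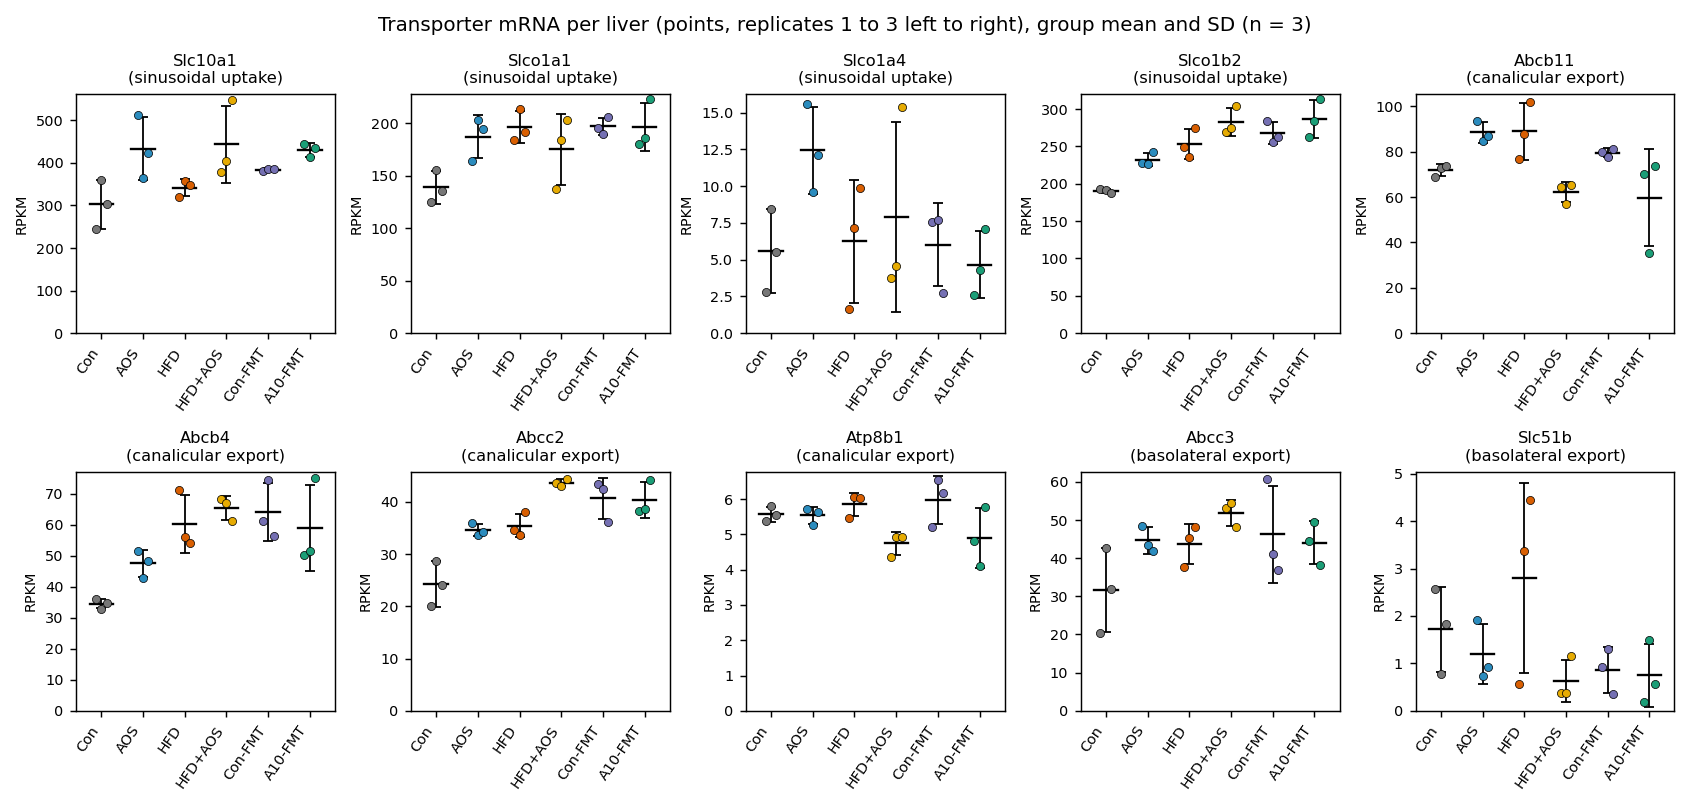
Level of each transporter (y axis, RPKM from 0) in the 3 livers of each of the 6 groups (x axis), with points for livers 1 to 3 from left to right, a bar for the mean and whiskers for the SD. Con livers sit lowest for Slco1b2, Abcb4 and Abcc2, and Abcb11 sits lowest in A10-FMT and HFD+AOS.

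By level, the uptake carriers stood first. Slc10a1, the sodium-dependent carrier Ntcp that takes up most conjugated bile acids, had a median of 383 RPKM over the 18 livers and exceeded 98.1% of genes tested. Slco1b2 (median 260 RPKM) and Slco1a1 (188 RPKM), sodium-independent carriers of bile acids and other organic anions, came next. Slco1a4, a carrier of the same kind, was far lower, at a median of 7.13 RPKM.

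Among the export pumps, Abcb11, the bile salt export pump, had a median of 75.3 RPKM. Abcb4, the flippase that moves phosphatidylcholine into bile, followed at 55 RPKM. Abcc3, which returns conjugates to blood, was at 44 RPKM, and Abcc2, which exports bilirubin and drug conjugates into bile, at 37.1 RPKM. Atp8b1, the flippase that keeps the canalicular membrane stable, was at 5.51 RPKM. Slc51b, the beta subunit of the basolateral exporter Ost, was the lowest, with a median of 0.925 RPKM. Its partner Slc51a was listed at 0 in all 18 livers.

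The members varied unequally between livers. Atp8b1 was the steadiest, with a coefficient of variation of 11.6% over the 18 livers, followed by Slco1b2 at 14.6% and Slco1a1 at 15.2%. Slco1a4 at 58.5% and Slc51b at 86.5% were the least steady. For Slc51b a step of 0.186 RPKM was picked as the one, of those searched, whose whole multiples lay closest to its 15 values under 2 RPKM. These values lay on average 0.07 and at most 0.24 of a step from a whole multiple. The step was fitted to the same values, so this distance cannot show that they fall in steps. On that scale the livers held between 1 and 24 steps, and 13 of 18 held fewer than 10.

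With the high-fat diet, 2 canalicular exporters and 1 uptake carrier rose. Over the 12 high-fat livers against the 6 regular-diet livers, 3 of 10 members passed the test, Slco1b2, Abcb4 and Abcc2, all higher, where 12.9% of all genes tested passed. The median change of the members was 0.19, against 0.01 over all genes tested. In the test of any difference among the 6 groups the same 3 members passed, where 14.8% of genes did. Both counts were 5 without the second Con liver, and the second was also 5 without the third A10-FMT liver. In bulk liver, fewer cells of a type and less RNA per cell cannot be told apart.

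Abcb4 (chr5:8893717-8959231, plus strand, GRCm38) was at 36, 32.97 and 34.7 RPKM in the Con livers and at 51.4, 42.7 and 48.4 in the AOS livers. It was at 71.1, 55.98 and 54.03 RPKM in HFD, at 68.4, 66.95 and 61.04 in HFD+AOS, at 61.1, 74.5 and 56.5 in Con-FMT and at 50.2, 51.5 and 75 in A10-FMT. Of the 12 high-fat livers, 11 lay above every regular-diet liver, the first A10-FMT liver being the exception. The change was 0.59 ± 0.09 (SE) on the log2 scale (limma, adjusted p = 0.000515), from group means between 34.6 ± 1.52 (SD, n = 3) RPKM in Con and 65.5 ± 3.88 (SD, n = 3) in HFD+AOS. Of the 40-base windows of the longest Abcb4 transcript, 4.41% also occurred in transcripts of other genes, chiefly Abcb1a and Abcb1b, so that some reads could have counted for several genes.

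Abcc2 (chr19:43782192-43840740, plus strand) was at 20.01, 28.8 and 24.04 RPKM in Con and at 35.9, 33.7 and 34.3 in AOS. The high-fat livers held 34.6, 33.7 and 38.01 RPKM in HFD, 43.6, 42.98 and 44.4 in HFD+AOS, 43.3, 42.5 and 36.2 in Con-FMT and 38.2, 38.7 and 44.3 in A10-FMT. Con lay below the other 5 groups without overlap, and 10 of 12 high-fat livers lay above every regular-diet liver. The change with the high-fat diet was 0.45 ± 0.07 (SE) (limma, adjusted p = 0.000421).

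Slco1b2 (chr6:141629518-141686646, plus strand) was the most even of the 3 within groups. Its levels were 193, 192 and 188 RPKM in Con and 228, 226 and 243 in AOS. They were 249, 236 and 275 RPKM in HFD, 269, 275 and 305 in HFD+AOS, 284, 257 and 263 in Con-FMT and 263, 284 and 314 in A10-FMT. Again 11 of 12 high-fat livers lay above every regular-diet liver, all but the second HFD liver, and the change was 0.37 ± 0.05 (SE) (limma, adjusted p = 0.000335). The rise of this uptake carrier was the smallest of the 3 on the log2 scale.

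Without the third Con and AOS livers the changes of Slco1b2, Abcb4 and Abcc2 were 0.38, 0.60 and 0.45, and all 3 passed (limma, adjusted p = 0.00660, 0.00860 and 0.00860). When only the livers given AOS directly were compared, HFD+AOS against AOS, a comparison chosen after the data were seen, they were 0.28, 0.46 and 0.33 and none of the 10 passed, where 5.44% of genes did (limma, adjusted p from 0.0638 to 0.0908 for these 3, 4 members at an unadjusted p under 0.05). Markers of other cells differed as well between all high-fat and all regular-diet livers. In this comparison 12.9% of all genes passed. Of 8 Kupffer cell and macrophage markers 5 fell, and their summed level was 64.3 to 109.5 RPKM with the regular diet and 48 to 106 with the high-fat diet. Of 8 stellate cell markers Reln and Col3a1 rose, with summed levels of 74.99 to 94.5 and 75.2 to 120.5 RPKM, and of 7 endothelial markers tested Stab2 rose. Of the 8 hepatocyte markers, Apoa1 and Cyp2e1 rose. Without the third Con and AOS livers only Reln and Cyp2e1 of these 10 passed. Their part in the changes of the transporters was not tested.

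Between HFD and Con alone, 2 of 10 members passed, where 0.381% of genes did, and 5 had an unadjusted p under 0.05, all higher. Abcb4 rose by 0.78 ± 0.14 (SE) (limma, adjusted p = 0.0352) and Abcc2 by 0.54 ± 0.11 (SE) (limma, adjusted p = 0.0414). Slco1b2 was 0.40 ± 0.08 (SE) higher without passing (limma, adjusted p = 0.0517). The livers of HFD and Con did not overlap for 5 members, all higher in HFD, namely Slco1a1, Slco1b2, Abcb11, Abcb4 and Abcc2, where 18.5% of all genes did not overlap. All 10 members had a higher mean of log2 values in HFD, with a median change of 0.38 against 0.05 over all genes. Neither call held without the third Con liver (limma, adjusted p = 0.148 for Abcb4 and 0.178 for Abcc2), at changes of 0.78 and 0.54. The count was also 0 without the first Con liver, any 1 of the HFD livers, the third AOS liver or the first HFD+AOS liver, and 1 without the first or second AOS, the second or the third HFD+AOS, the second Con-FMT or the second A10-FMT liver.

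**Figure D2:**
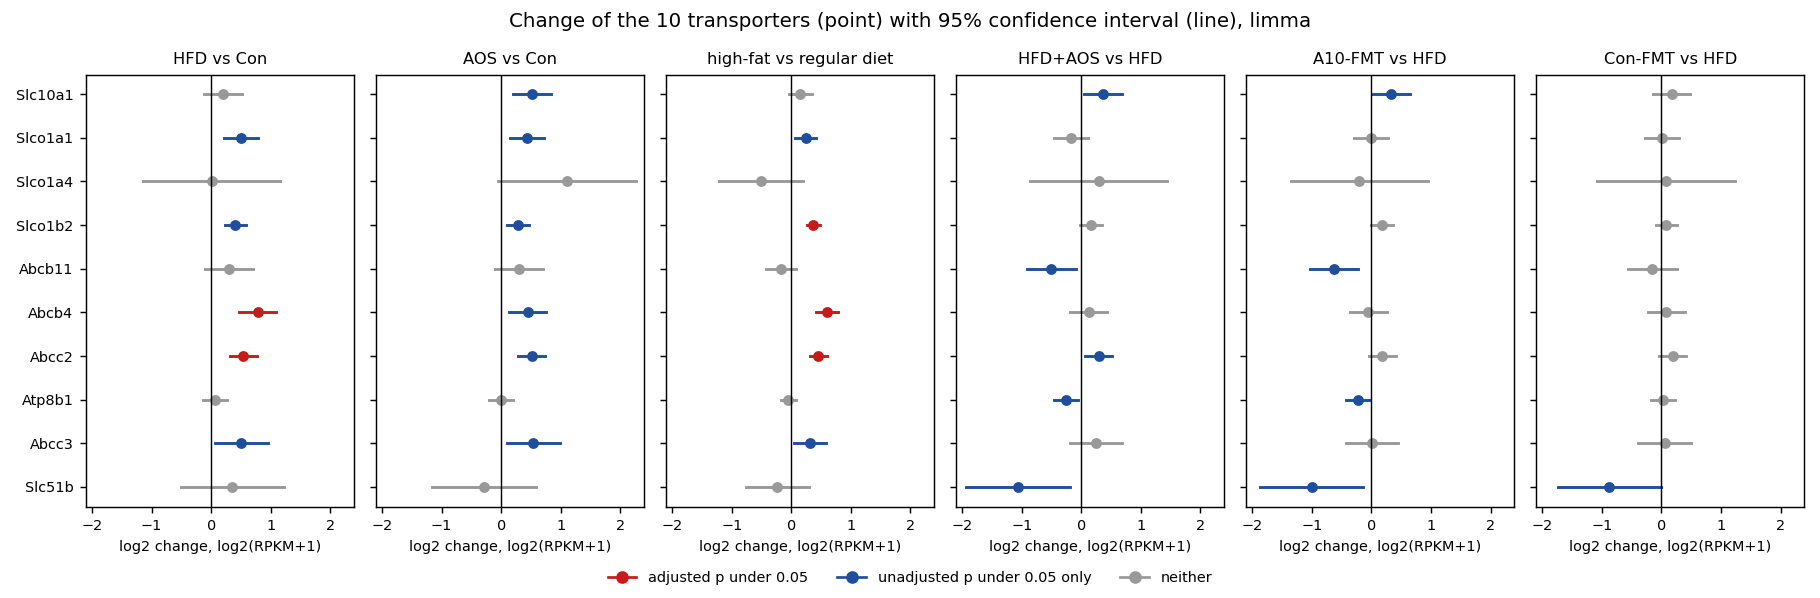
Log2 change of each transporter (x axis, difference of log2(RPKM + 1)) in 6 comparisons, with points for the change and lines for its 95% confidence interval. Red marks an adjusted p under 0.05 (Abcb4 and Abcc2 in HFD against Con, with Slco1b2 in high-fat against regular diet), blue an unadjusted p under 0.05 only.

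With AOS given without the high-fat diet, most members lay higher by value, and none passed the test. Against Con, 0 of 10 members passed (limma), where 0.133% of genes did, while 6 had an unadjusted p under 0.05, all higher: Slc10a1, Slco1a1, Slco1b2, Abcb4, Abcc2 and Abcc3. The livers did not overlap for 7 members, all higher in AOS, where 24.7% of genes did not overlap. The change of Abcc2 was 0.51 ± 0.11 (SE) (limma, adjusted p = 0.0710). That of Slc10a1 was 0.52 ± 0.15 (SE), from 245, 359 and 303 RPKM in Con to 511, 365 and 422 in AOS (limma, adjusted p = 0.144). Without the third Con and AOS livers the changes of Abcc2 and Slc10a1 were 0.52 and 0.54 (limma, adjusted p = 0.523 for both). Without the second Con liver Abcc2 passed, at a change of 0.64 (limma, adjusted p = 0.0075), and without the third Con liver it did not, at 0.51 (limma, adjusted p = 0.227). The first Con liver had the lowest value of Slc10a1, Slco1a1, Abcc2 and Abcc3 among all 18. Its library also had the lowest median log2 value of the tested genes, 2.89, where the highest was 3.07. Its 10 highest genes held 39.0% of its summed RPKM, the largest share of all libraries.

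Within the high-fat diet the bile salt export pump lay lower by value with AOS or A10-FMT, without passing the test. Abcb11 (chr2:69238282-69342616, minus strand) was at 76.8, 87.99 and 102 RPKM in HFD and at 79.97, 77.5 and 81.3 in Con-FMT. It was at 64.3, 56.97 and 65.3 in HFD+AOS and at 70.3, 35.3 and 73.7 in A10-FMT. Con was at 68.8, 73.01 and 73.8 RPKM and AOS at 93.6, 84.9 and 87.1. The livers of HFD+AOS and of A10-FMT both lay below those of HFD without overlap, and those of A10-FMT lay below those of Con-FMT. The changes against HFD were -0.50 ± 0.19 (SE) with AOS (limma, adjusted p = 0.112) and -0.63 ± 0.19 (SE) with A10-FMT (limma, adjusted p = 0.0589). Neither passed, and both used the same HFD livers. The second A10-FMT liver, at 35.3 RPKM, was the lowest of all 18, and without it the change with A10-FMT was -0.29, while the change in HFD+AOS passed on the smaller spread (limma, adjusted p = 0.00502). Without the first HFD liver or the third A10-FMT liver the change with A10-FMT was -0.73 or -0.81 and passed (limma, adjusted p = 0.043 and 0.0148).

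Atp8b1 also lay lower by value in HFD+AOS and A10-FMT than in HFD. It was at 5.48, 6.06 and 6.02 RPKM in HFD, 4.37, 4.93 and 4.94 in HFD+AOS and 4.81, 4.1 and 5.79 in A10-FMT. Only HFD+AOS lay below HFD without overlap. The changes were -0.25 ± 0.10 (SE) in HFD+AOS and -0.22 ± 0.10 (SE) in A10-FMT (limma, adjusted p = 0.106 and 0.161). Without the third A10-FMT liver the latter was -0.33 and passed (limma, adjusted p = 0.0297), and without the second it was -0.12 (limma, adjusted p = 0.522).

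Slc10a1 (chr12:80953183-80968705, minus strand) stood the other way. It was at 319, 358 and 348 RPKM in HFD, 381, 387 and 385 in Con-FMT, 444, 413 and 434 in A10-FMT and 379, 404 and 547 in HFD+AOS. The 3 groups given AOS or transfers each lay above HFD without overlap, and A10-FMT lay above Con-FMT. The changes against HFD were 0.36 ± 0.15 (SE) in HFD+AOS, 0.33 ± 0.15 (SE) in A10-FMT and 0.17 ± 0.15 (SE) in Con-FMT, and none passed (limma, adjusted p = 0.142, 0.184 and 0.877). Without the third HFD+AOS liver, at 547 RPKM, the change in HFD+AOS was 0.198.

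Over all 10 members, 0 passed in A10-FMT against HFD (limma), where 6.60% of genes did, with 4 at an unadjusted p under 0.05, of which Slc10a1 was higher and Abcb11, Atp8b1 and Slc51b lower. In HFD+AOS against HFD 0 passed (limma), where 8.75% did, with 5 at an unadjusted p under 0.05, the same 4 genes and Abcc2. Abcc2 was 0.29 ± 0.11 (SE) higher there (limma, adjusted p = 0.0966). Livers did not overlap for 3 members in A10-FMT against HFD and for 4 in HFD+AOS against HFD, where 23.4% and 27.2% of genes did not overlap, so that the members' shares were near those of all genes. Without the first HFD liver 2 members passed in A10-FMT and 1 in HFD+AOS, and without the first Con liver Abcc2 passed in HFD+AOS (limma, adjusted p = 0.0491).

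Neither comparison of the transfer of control microbiota had a member past the test. In Con-FMT against HFD 0 of 10 passed (limma), where 0.00952% of genes did, with only Slc51b at an unadjusted p under 0.05, and Slc10a1 alone did not overlap, where 10.1% of genes did not. In A10-FMT against Con-FMT 0 passed (limma), where 1.68% did, with Abcb11 and Atp8b1 at an unadjusted p under 0.05. Their changes were -0.48 ± 0.19 (SE) and -0.25 ± 0.10 (SE) (limma, adjusted p = 0.223 and 0.213), and Atp8b1 passed without the third A10-FMT liver (limma, adjusted p = 0.0371, change -0.35). Without the second A10-FMT liver they were -0.14 and -0.15 (limma, adjusted p = 0.658 and 0.608). Slc10a1 and Abcb11 did not overlap between these groups, where 18.3% of genes did not. For the other members the 95% intervals of the A10-FMT change against HFD ran from -0.28 to 0.28 for Slco1a1 to -1.36 to 0.95 for Slco1a4, so that no member was shown to be equal between the groups.

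The effect of AOS was compared between the diets. By value, all 10 members had a lower change with AOS under the high-fat diet than without it, with a median difference of -0.31, against -0.08 over all genes. None of the 10 passed (limma), where 0.504% of genes did, and 2 had an unadjusted p under 0.05. Abcb11 was 0.30 higher with AOS alone and lower with AOS on the high-fat diet, a difference of -0.80 ± 0.27 (SE) (limma, adjusted p = 0.192). For Slco1a1 the difference was -0.61 ± 0.19 (SE) (limma, adjusted p = 0.156). Fitted on the 4 groups of this comparison alone, the difference of Abcb11 passed (limma, adjusted p = 0.0205), as it did without the second A10-FMT liver (limma, adjusted p = 0.00926). Without the third Con and AOS livers the differences of Abcb11 and Slco1a1 were -0.83 and -0.56, and neither passed (limma, adjusted p = 0.483 and 0.493).

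Slco1a1, a carrier known for its male-biased level in mouse liver, was lowest in Con, at 125, 156 and 135 RPKM, and at 184, 213 and 191 in HFD. The change with HFD was 0.50 ± 0.13 (SE) (limma, adjusted p = 0.114), and 0.48 without the third Con and AOS livers (limma, adjusted p = 0.405). Its female-biased neighbour Slco1a4 was highest in AOS, at 15.6, 9.63 and 12.1 RPKM, against 2.78, 8.43 and 5.55 in Con, and its values within HFD ran from 1.67 to 9.88 RPKM. No comparison of Slco1a4 had an unadjusted p under 0.05. Slco1b2, Slco1a4 and Slco1a1 lie in a row on chromosome 6 within 317445 bases, and 3.29% and 4.57% of the 40-base windows of Slco1a1 and Slco1a4 also occurred in other transcripts, mostly of each other and of Slco1a5 and Slco1a6. The 3 neighbours did not keep the same order: Slco1b2 stood highest in A10-FMT, Slco1a1 in Con-FMT and Slco1a4 in AOS.

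Abcc3 (chr11:94343295-94392997, minus strand) was at 20.4, 42.6 and 31.9 RPKM in Con and at 53.2, 54.4 and 48.1 in HFD+AOS, its lowest and highest groups. The change with HFD was 0.51 ± 0.21 (SE) and that with AOS 0.54 ± 0.21 (SE) (limma, adjusted p = 0.260 and 0.233). Without the first Con liver, at 20.4 RPKM, these changes were 0.233 and 0.266, and without the second 0.75 and 0.78. Without the third Con and AOS livers they were 0.54 and 0.62 (limma, adjusted p = 0.482 and 0.558). The Con livers overlapped those of every group except HFD+AOS.

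Slc51b (chr9:65412714-65422955, minus strand) was at 0.56, 3.38 and 4.45 RPKM in HFD, so that the first HFD liver lay near the groups below. It was at 0.38, 0.37 and 1.15 in HFD+AOS, 0.92, 1.31 and 0.36 in Con-FMT and 0.19, 1.49 and 0.56 in A10-FMT, and at 2.56, 0.77 and 1.83 in Con. The changes against HFD were -1.06 ± 0.41 (SE), -0.88 ± 0.41 (SE) and -1.003 ± 0.41 (SE) (limma, adjusted p = 0.113, 0.742 and 0.145), and no group was free of overlap with HFD. Without the first HFD liver the changes in HFD+AOS and A10-FMT were -1.61 and -1.55 and passed (limma, adjusted p = 0.0112 and 0.0149), and that in Con-FMT was -1.42. Without the third HFD liver the changes were -0.71 in HFD+AOS, -0.65 in A10-FMT and -0.52 in Con-FMT.

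The balance between pumps shifted between groups, given here as a description. The ratio of Abcb11 to Abcb4, bile acid pump to phospholipid flippase, was 1.91, 2.21 and 2.12 in Con and 1.82, 1.99 and 1.80 in AOS. It was 1.08, 1.57 and 1.89 in HFD, 1.31, 1.04 and 1.44 in Con-FMT, 0.940, 0.851 and 1.07 in HFD+AOS and 1.40, 0.685 and 0.983 in A10-FMT. Every Con liver lay above every high-fat liver. The ratio of Abcb11 to Slc10a1, export to uptake, was 0.240, 0.246 and 0.293 in HFD, 0.210, 0.200 and 0.211 in Con-FMT, 0.170, 0.141 and 0.119 in HFD+AOS and 0.158, 0.0855 and 0.170 in A10-FMT. All 3 of the latter groups lay below HFD without overlap. Con was at 0.281, 0.203 and 0.244 and AOS at 0.183, 0.232 and 0.206. The ratio of Abcc3 to Abcc2 kept within overlapping ranges, with means between 1.10 and 1.29.

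**Figure D3:**
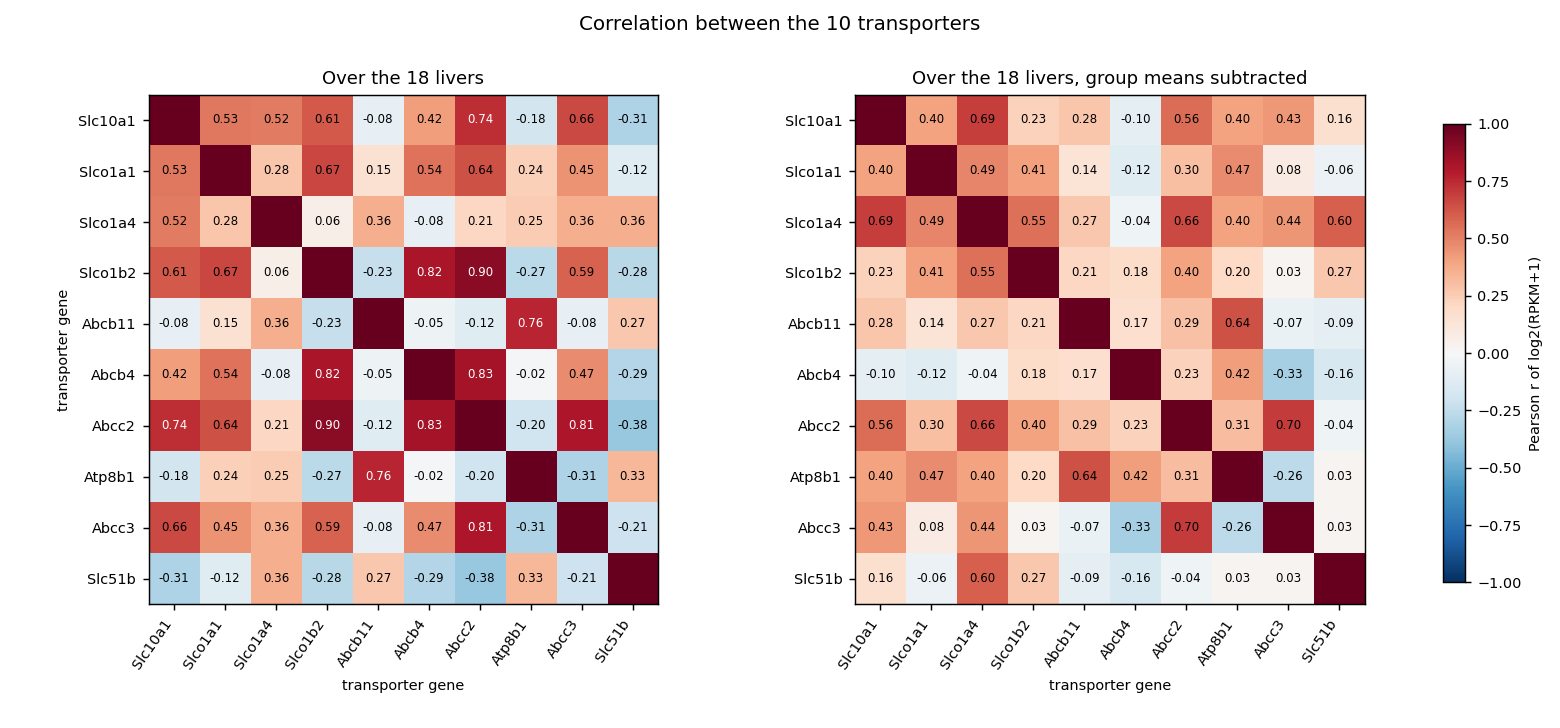
Pearson r of log2(RPKM + 1) between each pair of transporters (x and y axes), over the 18 livers on the left and with group means subtracted on the right. Slco1b2, Abcb4 and Abcc2, the members that passed with the high-fat diet, have r of 0.82 to 0.90 with each other on the left, which is lower on the right. Abcb11 and Atp8b1 have r of 0.76 on the left and 0.64 on the right.

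Correlations across the 18 livers are given as descriptions, since livers of a group share diet and treatment and all values share their library. The Pearson r was 0.90 between Slco1b2 and Abcc2, 0.83 between Abcb4 and Abcc2 and 0.82 between Slco1b2 and Abcb4, and with group means subtracted it was 0.40, 0.23 and 0.18. These 3 genes are the members that passed with the high-fat diet. Abcc2 and Abcc3 had 0.81 and 0.70, Slc10a1 and Abcc2 had 0.74 and 0.56, and Abcb11 and Atp8b1 had 0.76 and 0.64. Both Abcb11 and Atp8b1 had their lowest value of all 18 livers in the second A10-FMT liver. With group means subtracted, Slc10a1 and Slco1a4 had 0.69 and Slco1a4 and Abcc2 had 0.66. The median over the 45 pairs was 0.27, from -0.38 to 0.90, and 14 pairs were over 0.5. The genes of all 10507 whose pattern was most like that of Abcc2 were F5, Cdh2 and Acot12, with r between 0.95 and 0.96. For Slco1b2 they were Abcc2, Akr1c6 and Npc1, for Abcb4 Acad11, Hsd17b4 and Abca6, and for Abcb11 Irf2bp2, Atf5 and Abca8b, with r between 0.87 and 0.90.

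The other genes of the pathway are given by list. Of 21 other hepatobiliary transporters 15 were tested. With the high-fat diet 7 passed, 6 higher and 1 lower (5 without the third Con and AOS livers), where 12.9% of all genes did. Among them Slc22a7, an organic anion carrier, rose by 0.71 ± 0.11 (SE) and the copper exporter Atp7b by 0.37 ± 0.07 (SE) (limma, adjusted p = 0.000878 and 0.00281). Abcg5 and Abcg8, the paired transporters that export cholesterol into bile, passed in both comparisons with HFD that follow. They were the 2 of 15 past the test with A10-FMT and with AOS, where 6.60% and 8.75% of all genes passed. Abcg5 was at 17.7, 14.7 and 16.6 RPKM in Con, 34.1, 26.4 and 27.8 in AOS, 23.1, 21.6 and 23.5 in HFD, 40.9, 41.2 and 45.6 in HFD+AOS, 40.2, 27.5 and 31.1 in Con-FMT and 57, 46.9 and 43.01 in A10-FMT. The last 3 groups each lay above HFD without overlap, and the change in Con-FMT was 0.50 ± 0.13 (SE) (limma, adjusted p = 0.489). It rose by 1.06 ± 0.13 (SE) with A10-FMT and by 0.88 ± 0.13 (SE) with AOS on the high-fat diet (limma, adjusted p = 0.000236 and 0.00111). Abcg8 rose by 0.89 ± 0.14 (SE) and 1.04 ± 0.14 (SE) in the same comparisons (limma, adjusted p = 0.00168 and 0.000426), where Abcb4 changed by -0.05 and 0.12 without passing. The count of 2 in HFD+AOS was 5 without the first Con liver and 4 without the first HFD liver. Both also rose in AOS against Con (limma, adjusted p = 0.0221 for both), 2 of 15 passing where 0.133% of all genes did. That count was 0 without the third Con and AOS livers (limma, adjusted p = 0.46 for both) or without the first or the third liver of Con or of AOS alone, and 1 without the second AOS liver.

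All 17 listed genes of canalicular trafficking, anchoring and tight junctions were tested. With A10-FMT 3 passed and with AOS on the high-fat diet 3, where 6.60% and 8.75% of all genes did. Cldn1, a claudin of the junctions that seal the canaliculus, was at 51.3, 59.5 and 56.6 RPKM in HFD, 33.8, 32.3 and 33.9 in HFD+AOS and 24.3, 20.1 and 31.8 in A10-FMT. It fell by 1.13 ± 0.15 (SE) with A10-FMT against HFD (limma, adjusted p = 0.000290). Con-FMT was at 54.45, 60.49 and 45.06 RPKM. Against Con-FMT, Cldn1 was 1.06 ± 0.15 (SE) lower in A10-FMT (limma, adjusted p = 0.00150), the only 1 of the 17 genes to pass there, where 1.68% of all genes did. The junction gene Cgn fell in HFD+AOS and A10-FMT against HFD as well, and Slc9a3r1, a scaffold of membrane transporters, rose. In these 2 comparisons Sox9, of 4 cholangiocyte markers tested, also passed as lower, at 0.76 to 3.56 RPKM over all livers. Of 8 hepatocyte markers Cyp2e1 passed as higher in both, and Hnf4a as lower in HFD+AOS. Their part in these changes was not tested. In high-fat against regular diet Rdx, which ties canalicular membrane proteins to actin, and the scaffold Pdzk1 rose, by 0.20 ± 0.04 (SE) and 0.34 ± 0.07 (SE) (limma, adjusted p = 0.00483 and 0.00614). Cgn fell there by 0.34 ± 0.08 (SE), but was not lower in HFD against Con, at 0.08 ± 0.12 (SE) (limma, adjusted p = 0.808). Its means were 12.4 RPKM in Con, 10.1 in AOS, 13.35 in HFD, 9.48 in Con-FMT, 7.33 in A10-FMT and 5.98 in HFD+AOS. Of the 17 genes 3 passed with the high-fat diet, where 12.9% of all genes did. Cgn did not pass without the third Con and AOS livers (limma, adjusted p = 0.068), and the count of 3 was 5 without the first HFD liver.

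Of 16 receptors and factors known to act on these transporters 14 were tested. With A10-FMT, with AOS on the high-fat diet and with the high-fat diet 3 each passed, where 6.60%, 8.75% and 12.9% of all genes did. Nr1h4 was at 63.4, 73.4 and 58.6 RPKM in HFD, 84.99, 81.2 and 87.3 in HFD+AOS and 88.7, 96.2 and 72.4 in A10-FMT, and rose in both (limma, adjusted p = 0.0378 and 0.0377), while Abcb11 was lower by value in these groups. Ppara, the fatty acid receptor, rose in both too. Nr1i3, the receptor Car, rose in A10-FMT, and Hnf4a, a factor of hepatocyte identity, fell in HFD+AOS. In high-fat against regular diet Nr1h4, Ppara and Rxra, the partner of many of these receptors, rose, the last by 0.20 ± 0.05 (SE) (limma, adjusted p = 0.0158). In HFD against Con 0 of the 14 passed (limma), where 0.381% of all genes did. Nr1h4 changed there by 0.13 ± 0.10 (SE) (limma, adjusted p = 0.598). Its means were 59.5 RPKM in Con, 56.6 in AOS, 65.1 in HFD and 60.5 in Con-FMT, against 84.5 in HFD+AOS and 85.8 in A10-FMT. The count of 3 with the high-fat diet was 2 without the third Con and AOS livers, Rxra being lost, and 5 without the second Con or the third Con-FMT liver. Nr1i2, the receptor Pxr, passed only in the test of any difference among the groups (limma, adjusted p = 0.0422). The count of 3 in A10-FMT was 0 without the third HFD or the first or second A10-FMT liver and 1 without the second HFD liver, and that of 3 in HFD+AOS was 1 without any HFD+AOS liver or the third Con, AOS or HFD liver. Both were 1, Ppara, without the third Con and AOS livers together. Of 16 genes of bile acid synthesis and conjugation, all tested, 0 passed with A10-FMT or AOS against HFD (limma), where 6.60% and 8.75% of all genes did. With the high-fat diet 6 passed, 5 higher and 1 lower (3 without the third Con and AOS livers), where 12.9% of all genes did. Akr1c6, Sult2a8, which sulfates bile acids, and Amacr, a racemase of side-chain shortening, passed with and without those livers. Akr1c6 rose by 0.50 ± 0.06 (SE) and Cyp2c70, which makes muricholic acids, fell by 0.58 ± 0.12 (SE) (limma, adjusted p = 0.000169 and 0.00541). Cyp2c70 did not pass without the third Con and AOS livers, at a change of -0.56 (limma, adjusted p = 0.0503).

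**Figure D4:**
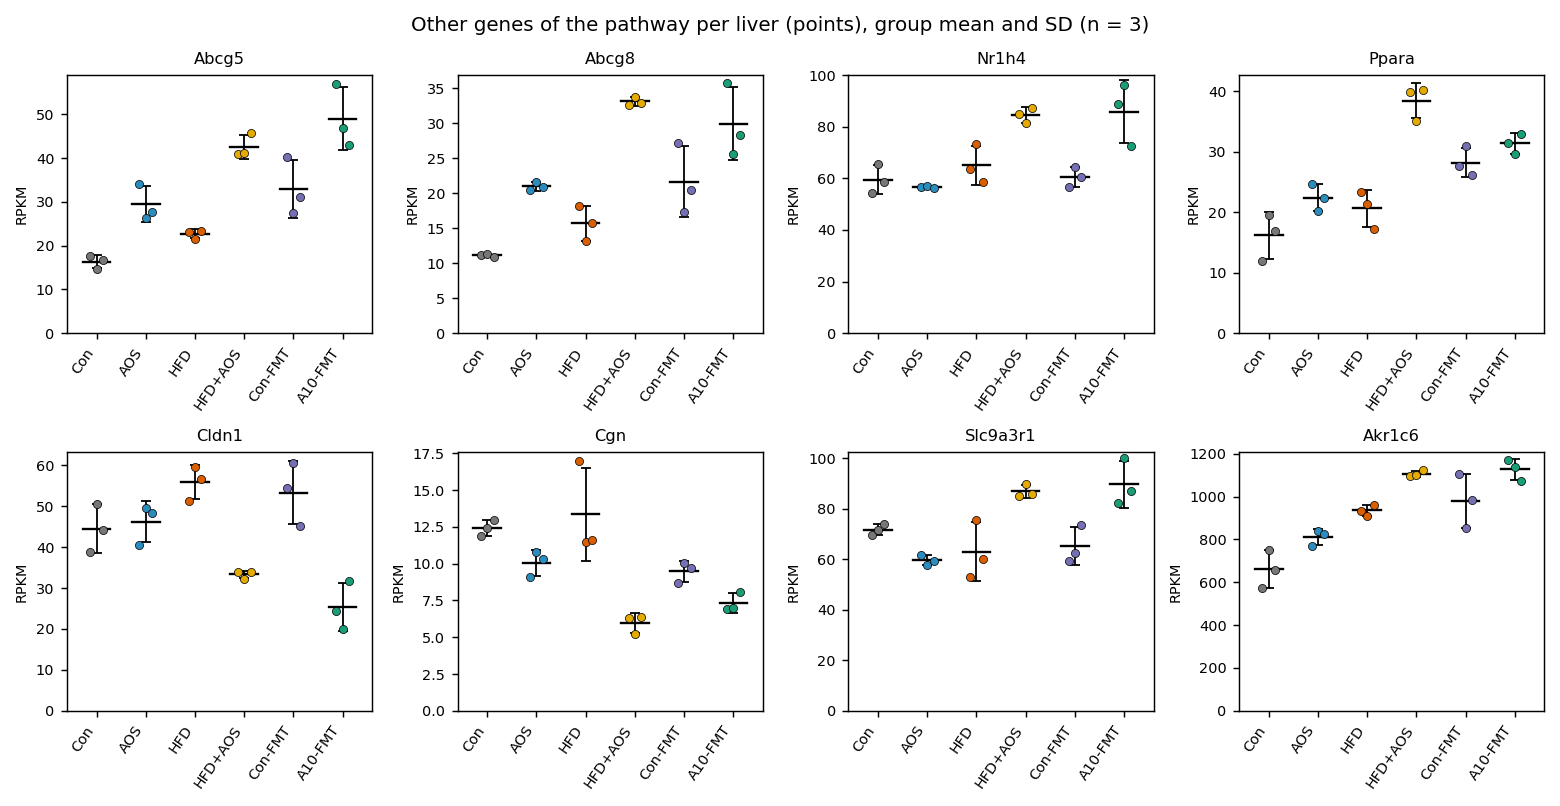
Level (y axis, RPKM from 0) of 8 genes of the lists in the 3 livers of each group (x axis), with points for livers, a bar for the mean and whiskers for the SD. Abcg5 and Abcg8 sit higher and Cldn1 and Cgn lower in HFD+AOS and A10-FMT than in HFD.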

How the data were processed

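Liver RNA, 3 libraries in each of 6 groups of mice, was sequenced by the authors. The authors aligned reads to reference genes with SOAPaligner in a mode that keeps every hit, and deposited RPKM values to 2 decimals. The submitters' processing notes name Bowtie 0.12.2 and mm10. The annotation, strandedness and depth are not given in the sources used here, so tests on read numbers, among them the DEGseq of the study, were not run.

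Groups came from the labels. Genes had to reach 1 RPKM in 3 or more livers, which left 10507 of 17109 above 0, and were tested on log2(RPKM + 1) with limma 3.58.1 (R 4.3.3, lmFit and eBayes with trend), with a mean per group over 18 livers and Benjamini-Hochberg adjustment over all genes. The fit was checked on simulated data. All members were named. List genes were named where they passed, at most 4 a list and comparison by p, and for each member the 3 genes of highest r, given for 4 members. The members, lists and motifs were chosen with earlier results of these data known. From the lists, 1 gene was left out of all counts and is not reported here. Gene places are from GENCODE M21, and promoters from RefSeq GRCm38.p6. Values and figures used Python 3.11.15, numpy 2.4.6, pandas 2.3.3 and matplotlib 3.10.9. Alternatives were equal library medians, a pseudocount of 0.1, no filter, a replicate block, only the groups compared, the study's cut-offs (FDR 0.001, log2 of 1), omission of each liver, and omission of the third livers of Con and AOS together.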

Additional observations from a re-analysis of the deposited data

How the results depend on the processing

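The counts of members past the test were recomputed under each alternative. In HFD against Con the count of 2 was 0 without a filter on low values, with the replicate block, without the third Con and AOS livers, at the cut-offs of the study and with only the compared groups fitted, and ran from 0 to 3 with each liver left out. Over all genes the count of 40 in this comparison fell as well. It was 26 of 17109 without a filter, 5 with the replicate block and 0 of 10507 without the third Con and AOS livers. In high-fat against regular diet the count of 3 was 0 at the cut-offs of the study and 0 in the AOS-given livers alone, and ran from 3 to 5 with each liver left out. In the test of any difference it was 0 at the cut-offs of the study and 3 to 5 with each liver left out. With each library's median set equal, HFD+AOS against HFD had 1 member, and the difference of the AOS effect between diets had 1 with only the compared groups fitted. With each liver left out, the counts were 0 to 2 in A10-FMT against HFD and 0 to 1 in A10-FMT against Con-FMT, in HFD+AOS against HFD, in AOS against Con and in the difference between diets. The change of Slco1a1 with the high-fat diet reversed, to -0.11, in HFD+AOS against AOS. Of 904 alternatives to 38 values of single members, 843 kept direction and side of the threshold, 31 fell below it, 29 rose past it and 1 reversed.

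No pairing of livers by replicate number was seen: correlations between deviations of same-numbered livers ran from -0.18 to 0.23, and 0 of 6 comparisons had all of them over 0.1. Low correlations over all genes cannot exclude a factor shared by same-numbered livers, and the replicate block lowered the counts in HFD against Con given above. The causes of these changes were not tested. With 3 livers a group, an unknown depth and RPKM rounded to 2 decimals, small changes and the low Slc51b could not be resolved, and the paper's own test could not be repeated.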

Other observations

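Several genes known as targets of the xenobiotic receptors Pxr and Car and of Nrf2, factors that also act on Slco1a4, Abcc2 and Abcc3, fell with the high-fat diet, where Abcc2 rose. Of 19 tested 7 passed, all lower (limma), where 12.9% of all genes did, and 6 passed without the third Con and AOS livers. Cyp3a11, the main drug-metabolizing P450 of this list, was at 1709.6, 2585 and 2082 RPKM in Con and 235, 1033 and 1134 in HFD. It was between 142.9 and 631 RPKM in the other 3 high-fat groups and between 2759 and 3085 in AOS, and lower by 2.98 ± 0.32 (SE) on the log2 scale with the high-fat diet (limma, adjusted p = 4.33e-05). Cyp2c29 and Gstm3 were among the others. Cyp2c55 was also counted in the 7 and in the 6, but its call gives no support. It reached 1 RPKM only in regular-diet livers, at 1.53 RPKM or less, and was at 0.05 to 0.59 in the high-fat livers. Cyp2c55 thus met the filter only through the groups where it was high. Por, the electron donor of these enzymes, rose with A10-FMT by 1.35 ± 0.30 (SE), from 21.5, 51.02 and 51.01 RPKM in HFD to 101, 152 and 63.4 in A10-FMT (limma, adjusted p = 0.0134). Por did not pass without the first or the second A10-FMT liver, and without the first HFD liver 6 genes of the list passed. The first HFD liver was below the other two for Cyp3a11 and Por, as it was for Slco1a4 and Slc51b.

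Elovl3, a fatty acid elongase of male-biased level, was at 250.2, 174 and 183 RPKM in HFD, 25.2, 26.5 and 45.3 in HFD+AOS and 20.96, 16.8 and 29.1 in A10-FMT. It was the only 1 of 15 male-biased genes past the test in both comparisons with HFD (limma, adjusted p = 8.70e-05 and 1.54e-05). Of all genes, 8.75% passed in HFD+AOS against HFD and 6.60% in A10-FMT against HFD. The male-biased Slco1a1 changed by -0.18 and -0.00 in the same comparisons. Elovl3 was at 129.89, 114.18 and 220.82 RPKM in Con-FMT, and A10-FMT was 2.72 ± 0.29 (SE) lower (limma, adjusted p = 0.000152). It was the only 1 of the 15 to pass there too, where 1.68% of all genes did. In high-fat against regular diet 4 male-biased genes passed (2 without the third Con and AOS livers), where 12.9% of all genes did. The P450 genes Cyp4a12b and Cyp4a12a and Elovl3 were lower and Cyp7b1 higher. In HFD against Con 0 of the 15 passed (limma), where 0.381% of all genes did. Elovl3 changed there by -0.17 ± 0.29 (SE) (limma, adjusted p = 0.82). Mup20 passed only in the test of any difference among the groups (limma, adjusted p = 0.037). Of 9 female-biased genes tested, Cyp3a44 passed in A10-FMT against HFD, at -2.04 ± 0.57 (SE) (limma, adjusted p = 0.0432), and Acot3 in HFD+AOS against HFD, at 1.58 ± 0.47 (SE) (limma, adjusted p = 0.0485). These calls were lost in 13 and 14 of the 18 fits that left out 1 liver. Acot3 was at 0.14, 0.64 and 0.95 RPKM in HFD and at 7.34, 1.07 and 4.6 in HFD+AOS. It met the filter of 1 RPKM in 3 livers only through HFD+AOS, where it was high, so its call gives no support.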
